A study of Mus musculus with 12 samples.

Results

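The mouse array used here carried 16181 probes that are named only by a stretch of the genome, such as chr10:94870971-94871658_R, and by no gene. They are probes for long intergenic noncoding RNAs, transcripts made from DNA between protein-coding genes. Members were chosen by that form of name among the 55681 non-control probes, and 5085 of them (31.4%) were tested, because the scanner software called them well above background on each of the 3 arrays of 1 group or more. Each name holds a chromosome, a start, an end and a letter F or R, read here as the strand. Coordinates are those of the array design, on the mm9 build that the file headers name. The scanner files give no probe sequence and no position of a probe within its locus, and no neighbouring gene or exon was assigned, because an mm9 annotation was not used here.

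Long noncoding RNAs are transcribed by RNA polymerase II and are often spliced and polyadenylated, but they encode no known protein. Many are present at low levels and in few cell types, and a number are known to act in the nucleus, as scaffolds for chromatin proteins or by being transcribed next to the gene they control. Their amounts are also set by early termination and by the nuclear RNA exosome, a complex that degrades RNA. In lymphocytes, activation is known to change which of them are made.

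Splenic B cells of 2 genotypes were compared in 2 states, with 3 replicates in each of the 4 groups. Control mice were B1-8hi:Sub1fl/fl, and knockout mice were B1-8hi:Sub1fl/fl-Mb1-Cre. Both carried B1-8hi, a knocked-in antibody heavy chain gene, and floxed Sub1, which encodes PC4, a transcriptional coactivator that is also found in chromatin. Only the knockout carried Mb1-Cre, a recombinase placed in the Cd79a locus and active in the B lineage, so loss of Sub1, presence of Cre and altered Cd79a cannot be told apart. Resting cells were labelled naive. Stimulated cells were collected at 72 h. The labels give no time in culture for resting cells, so stimulation and time in culture cannot be told apart. The treatment protocol names IL-2 at 100 U/mL, IL-4 at 5 ng/mL, IL-5 at 1.5 ng/mL, CD40 ligand at 0.2 ng/mL and NP-ficoll, the antigen that B1-8hi antibodies bind, at 0.01 ng/mL. The labels give neither age nor sex. Whether each replicate was a different animal is not stated either, so the tests below set differences against a spread among samples that could be technical.

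Replicates 1 and 2 of every group lay on slide 1 and replicate 3 on slide 2. All 8 B cell markers were tested, with summed levels of 490 to 1200 times the array's 75th percentile. After stimulation Sub1 stood at 8.05 ± 0.22 with control and at 6.84 ± 0.11 with knockout genotype (SD, n = 3 each). This change of -1.21 passed the test (adjusted p = 0.0114), while the change of -0.38 in resting cells did not pass the test (adjusted p = 0.268). Cd79a, the receptor chain whose locus holds the Cre, changed by -1.10 in stimulated knockout cells (adjusted p = 0.0343) and by -1.54 in resting ones (adjusted p = 0.0948). Probes named XIST read between -4.46 and -1.91 on both arrays of control replicate 1 and between 1.55 and 4.40 on the other 10, so control replicate 1 stands apart. Levels here are log2 processed signals minus the array's 75th percentile of non-control spots, changes are log2 differences, and adjusted p-values come from limma over all 22981 features tested.

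The loci were short stretches on the whole. The 16181 probes, of 1 spot each, covered 4607 names at 3540 loci, with a median of 3 and at most 10 probes for a locus and strand. The median locus was 7315.5 bp long, the shortest 62 bp and the longest 7128487 bp. Probes labelled F numbered 8171 and those labelled R 8010. At 2473 loci the probes lay on 1 strand and at 1067 on both. Of those 1067 loci, 561 had a tested probe on both strands, 181 on F alone, 193 on R alone and 132 on neither. The share of probes kept differed little with locus length, from 28.6% in loci over 100 kb to 32.1% in those of 1 to 10 kb and of 10 to 100 kb. By chromosome it ran from 24.4% on chromosome 10 to 38.4% on chromosome 5.

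Locus probes were dim, and how many were seen depended on the array. The share well above background was 23.2%, 38.7% and 51.7% in resting control replicates 1, 2 and 3, and 24.2%, 32.8% and 67.8% in resting knockout replicates. It was 17.1%, 7.24% and 46.1% in stimulated control and 53.5%, 26.1% and 68.0% in stimulated knockout replicates. The groups overlapped, and within each group the array on slide 2 had the highest share. Stimulated knockout exceeded stimulated control by 25.7 percentage points on average, which an exact two-sided permutation test did not separate (p = 0.2, where the smallest p it can give is 0.1). The same arrays ran from 23.5% to 76.6% over all non-control probes, and the arrays with the lowest and the highest share were the same for both kinds of probe. Stimulated control replicate 2 was the dimmest for detection: its lowest level called well above background was -0.10, against -3.46 to -1.18 on the other 11 arrays.

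**Figure D1:**
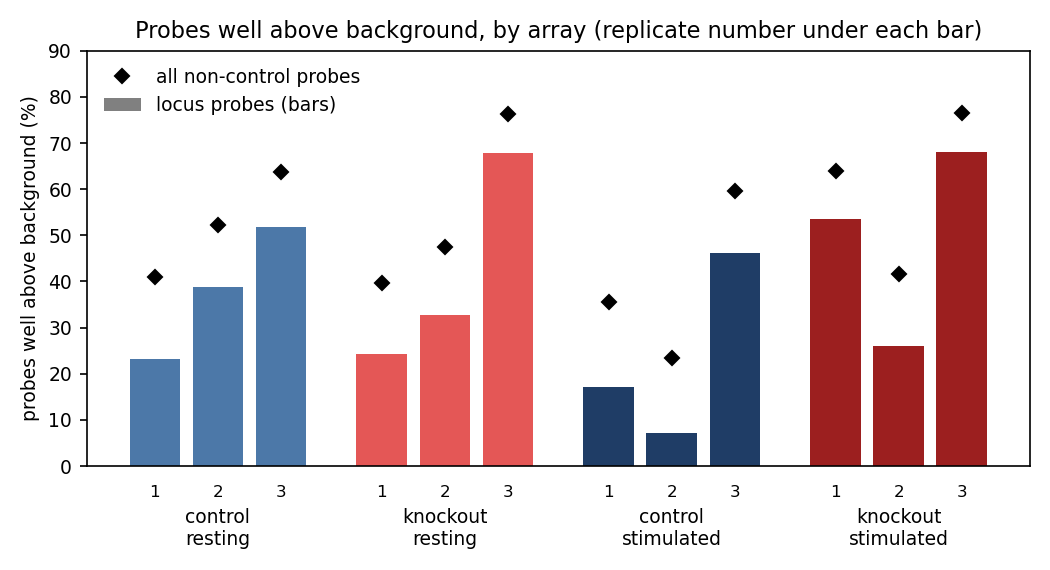
Share of probes well above background on each of the 12 arrays, in percent. Bars show the 16181 locus probes and diamonds all 55681 non-control probes; the bars run from 7.24% in stimulated control replicate 2 to 68.0% in stimulated knockout replicate 3, and each bar lies under its diamond.

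Because of this, the group through which a probe was kept matters. Well above background on all 3 arrays were 3037 probes in resting control, 2799 in resting knockout, 859 in stimulated control and 3635 in stimulated knockout cells. Kept through a single group were 732, 480, 11 and 1050 of these, in the same order. Well above background on all 12 arrays were 775 probes. A probe kept through its bright group alone tends to differ for that reason, so counts are also given for these 775 probes.

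In control cells, stimulation changed 726 of the 5085 locus probes: 201 rose and 525 fell. That is 14.3% of locus probes, 3.95% rising and 10.3% falling. Among all features, each named gene by 1 probe and each unnamed probe by itself, 27.8% were called, 14.7% rising and 13.1% falling. Of the 201 that rose, 2 were kept only through stimulated control cells, and of the 525 that fell, 144 only through resting control cells. Among the 775 probes seen on all 12 arrays, 102 rose and 90 fell, against 27.5% and 12.5% of the 10264 features seen on all arrays. The 201 probes had a median increase of 1.49 and a range of 0.51 to 5.12, and the 525 a median of -1.45 and sizes of 0.52 to 3.98. The 3 stimulated arrays did not overlap the 3 resting ones for 199 and 521 of them, and all had the same sign on both slides. Both are likely in probes picked by the test, so these counts are no further support. Without both arrays of control replicate 1 the count was 414, and on slide 1 alone 407. With a percentile taken over spots seen on all arrays, which moves the median of all features from 0.04 to -0.35, 11.3% of 1056 calls were increases in place of 27.7%. With a filter on all 12 arrays, 54.9% of 255 were. Cell type markers moved as well. Of 8 B cell markers 7 fell, of 7 plasma cell markers 6 rose, and of 5 platelet markers 3 fell. Of 13 tested myeloid markers 8 fell, with sums of 55.8 to 87.0 at rest and 12.6 to 28.2 after stimulation. Of 7 tested NK cell markers 2 rose, with sums of 5.56 to 9.04 and then 35.2 to 37.2. Of 9 T cell markers 2 rose and 2 fell, with sums of 14.3 to 18.0 and then 55.5 to 68.8. Of 2 tested erythroid markers 1 fell. The part of other cells in the locus probes was not tested, and fewer cells of a type cannot be told apart from less RNA per cell in these bulk samples.

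The steepest rise was at chr10:94870971-94871658 on strand R, a locus of 688 bp. Its probe A_30_P01024852 read -4.21, -4.23 and -4.87 in resting control cells, where no array was well above background, and 1.01, 0.73 and 0.30 after stimulation. The stimulated values lay above the array's 75th percentile and the resting values at background. The fitted change was 5.12 (SE 0.29, adjusted p = 3.89e-06), and since the resting values are at background the increase is given as at least 9.46-fold. That bound divides the bright group's mean by the lowest signal called well above background in the dim group, or by the probe's own value there where that is higher. Resting knockout cells read -3.20, -3.74 and -3.53 and stimulated knockout cells 1.01, 0.76 and 0.21, a change of 4.15 (SE 0.29, adjusted p = 3.05e-05), at least 6.87-fold. A second probe of the locus, A_30_P01026073, rose by 3.23 in control (adjusted p = 0.00116) and by 3.27 in knockout cells (adjusted p = 0.00219). Both calls of A_30_P01024852 held under each of 28 other settings.

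A stretch of chromosome 2 rose as a run of neighbouring loci. Between chr2:128137419 and chr2:128250301, 4 loci with called probes, on both strands, followed each other with gaps of at most 100 kb. There 9 probes rose by 1.56 to 4.14 in control cells. In knockout cells 6 probes of the same 4 loci rose by 1.83 to 2.91. Within it, A_30_P01029173 at chr2:128142035-128142481 on strand R read -4.44, -4.45 and -3.20 in resting control and 0.35, -0.37 and -0.25 in stimulated control cells. It was well above background on no resting array, and the change of 3.94 (SE 0.34, adjusted p = 2.39e-05) is given as at least 5.53-fold. A second probe there, A_30_P01026716, changed by 4.14 (SE 0.81, adjusted p = 0.00324), and A_30_P01026520 at chr2:128211990-128215223 on strand R by 3.98 (SE 0.59, adjusted p = 0.000572). These 2 rose by at least 4.46-fold and 4.11-fold. In knockout cells their changes of 2.65 (adjusted p = 0.0502) and 1.14 (adjusted p = 0.25) did not pass the test, and the difference between genotypes did not either (interaction adjusted p = 0.746 and 0.228).

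Other large increases had their resting levels partly above background. A_30_P01031155 at chr6:31170350-31287353, strand F, rose by 4.23 in control (SE 0.52, adjusted p = 0.000167) and by 2.25 in knockout cells (adjusted p = 0.0135). A_30_P01030078 at chr1:138499609-138502045, strand R, rose by 3.8 (adjusted p = 0.000116) and 1.78 (adjusted p = 0.019). At chr17:34018371-34019394, strand R, A_30_P01023554 read -1.29, -1.12 and -0.53 in resting control and 2.81, 2.37 and 2.74 in stimulated control cells. The knockout cells read -1.40, -1.02 and -0.99 at rest and 2.54, 1.70 and 2.18 after stimulation, so both genotypes moved from below to well over the 75th percentile. The changes were 3.62 (adjusted p = 1.37e-05) in control and 3.28 (adjusted p = 5.1e-05) in knockout cells, and a second probe of this locus, A_30_P01019819, rose by 3.29 and 2.96 (adjusted p = 5.16e-05 and 0.000233).

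The locus with most probes called upwards on 1 strand was chr9:14460976-14488051, strand F, where 5 of 5 tested probes rose by 2.45 to 2.75 in control cells and by 1.76 to 2.24 in knockout cells. Its probe A_30_P01028673 read 0.76, 1.08 and 0.72 at rest and 3.93, 3.58 and 3.18 after stimulation in control cells. In knockout cells it read 0.56, 1.00 and 0.72, then 3.1, 3.22 and 2.67. All 12 values were above the 75th percentile, and resting and stimulated values did not overlap in either genotype (adjusted p = 2.86e-05 in control and 0.000207 in knockout cells).

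**Figure D2:**
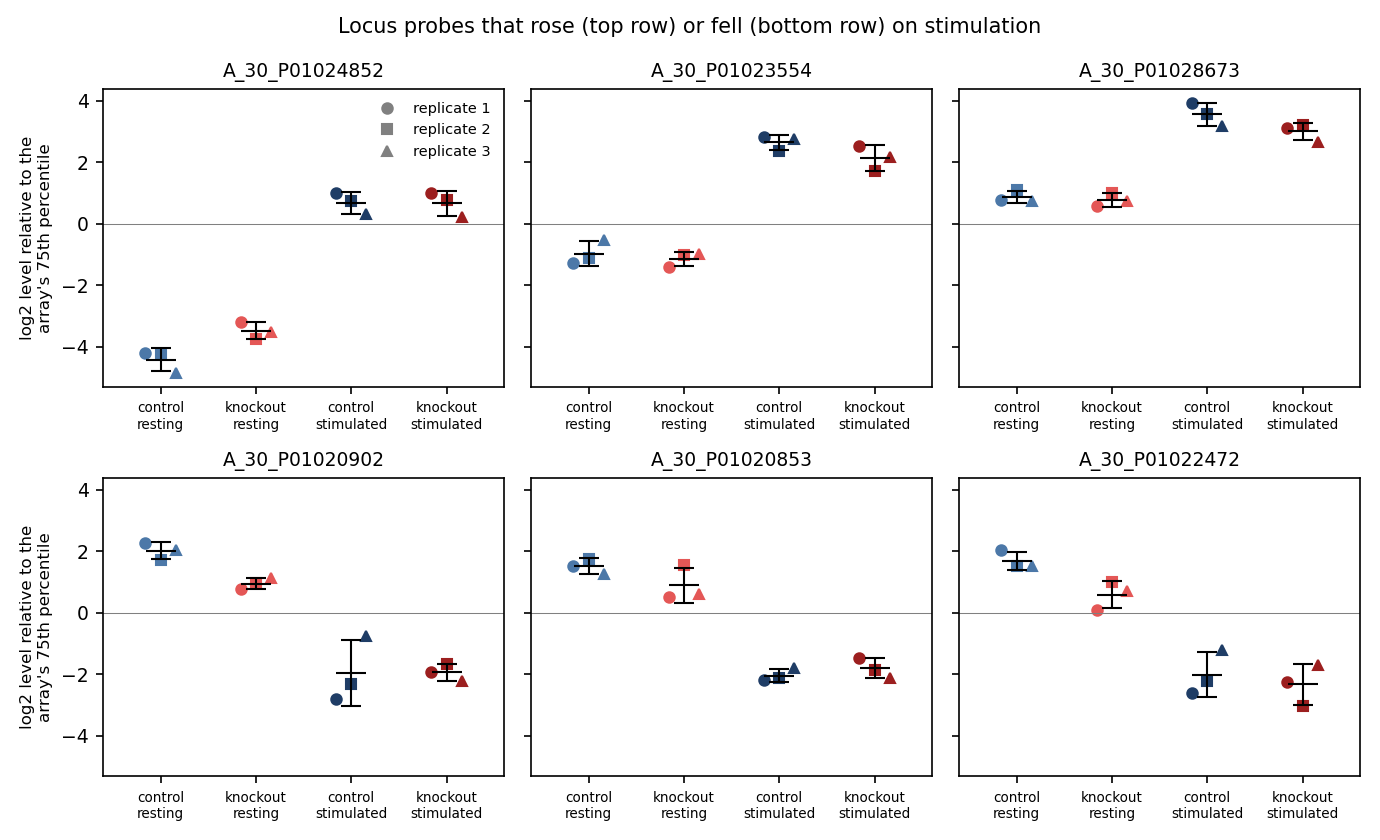
Log2 level relative to the array's 75th percentile for 6 locus probes in the 12 samples, with each replicate as a point and the mean and SD of 3 as a bar. The top row rose and the bottom row fell on stimulation; A_30_P01024852 moved in control cells from a mean of -4.44 to 0.68 and A_30_P01020902 from 2.02 to -1.96.

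The steepest fall was on chromosome 10, in a locus that overlaps another with a called fall. A_30_P01020902 at chr10:93774693-93893616, strand F, read 2.28, 1.73 and 2.04 in resting control and -2.81, -2.31 and -0.76 in stimulated control cells. Resting knockout cells read 0.77, 0.97 and 1.12 and stimulated ones -1.92, -1.66 and -2.21, so the stimulated arrays were below the resting ones in both genotypes. The change was -3.98 (SE 0.44, adjusted p = 8.44e-05) in control and -2.88 (SE 0.44, adjusted p = 0.00135) in knockout cells. In stimulated control replicates 1 and 2 the probe lay under the lowest level called well above background, -1.75 and -0.10. In stimulated knockout replicate 2 it lay under that array's lowest such level too, -1.43. The size of the fall in both genotypes thus rests in part on values at background. A second probe of this locus, A_30_P01030686, fell by 3.48 on the log2 scale in control (adjusted p = 0.000514). A_30_P01023171, in the overlapping locus chr10:93819821-93976621 of the same strand, fell by 3.54 in control (adjusted p = 2.42e-05) and by 1.10 in knockout cells (adjusted p = 0.0347).

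On chromosome 13, 2 probes of chr13:52678544-52680308, strand F, fell together. A_30_P01020853 read 1.53, 1.76 and 1.25 at rest and -2.20, -2.13 and -1.79 after stimulation in control cells, and in knockout cells 0.52, 1.55 and 0.60, then -1.46, -1.85 and -2.11. The groups did not overlap, and the changes were -3.55 (adjusted p = 2.08e-05) and -2.69 (adjusted p = 0.000225). In stimulated control replicates 1 and 2 and in stimulated knockout replicate 2 this probe also lay under the lowest level called well above background. The other probe, A_30_P01031225, was well above background on no stimulated control array. It fell at least 5.02-fold there (adjusted p = 0.000105), and its change in knockout cells was -2.65 (adjusted p = 0.00223), a call that ended on slide 1 alone.

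Whole loci fell as blocks of probes. At chr17:26911397-26917047, strand F, 10 of 10 tested probes fell by 1.30 to 1.94 in control cells, with a median of -1.68. None of these 10 passed the test in knockout cells, where the changes ran from -0.85 to -0.54, and no interaction was called there. At chr4:129497990-129515290, strand F, 10 of 10 fell in control cells by 1.32 to 1.76 and 3 of 10 in knockout cells. At chr19:53517903-53540753, strand R, 9 of 10 fell in control and 4 of 10 in knockout cells. Its probe A_30_P01022472 read 2.04, 1.53 and 1.52 in resting control, -2.62, -2.23 and -1.20 in stimulated control, 0.10, 0.99 and 0.70 in resting knockout and -2.26, -3.03 and -1.69 in stimulated knockout cells. Both stimulated groups were below both resting groups, and the changes were -3.72 (adjusted p = 0.000117) and -2.93 (adjusted p = 0.00113). Here too, stimulated control replicates 1 and 2 and stimulated knockout replicate 2 lay under the lowest level called well above background. At chr8:26212577-26218527, strand R, 5 of 5 fell in both genotypes, by 1.87 to 2.46 in control and by 1.20 to 1.51 in knockout cells. At chr3:21964899-21974524, strand R, 5 of 5 fell in control cells, by 1.94 to 3.07, and none passed the test in knockout cells.

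Probes of the same locus and strand followed each other in part, most closely where both were bright, and probes of its opposite strands showed little relation. Called probes fell into 411 names in control cells, 166 of them with 2 or more called, and in 5 of those 166 the called probes had both directions. Over 1252 names with 2 or more tested probes, taking 1 pair each, the changes on stimulation in control cells correlated at r = 0.56 (Spearman 0.43). Over the 79 pairs in which both probes were seen on all 12 arrays, r was 0.92. Across strands r was 0.14 over 561 loci and -0.18 over the 18 loci seen on all arrays. These are correlations across loci on the same arrays and carry no test, since loci are not independent replicates.

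**Figure D3:**
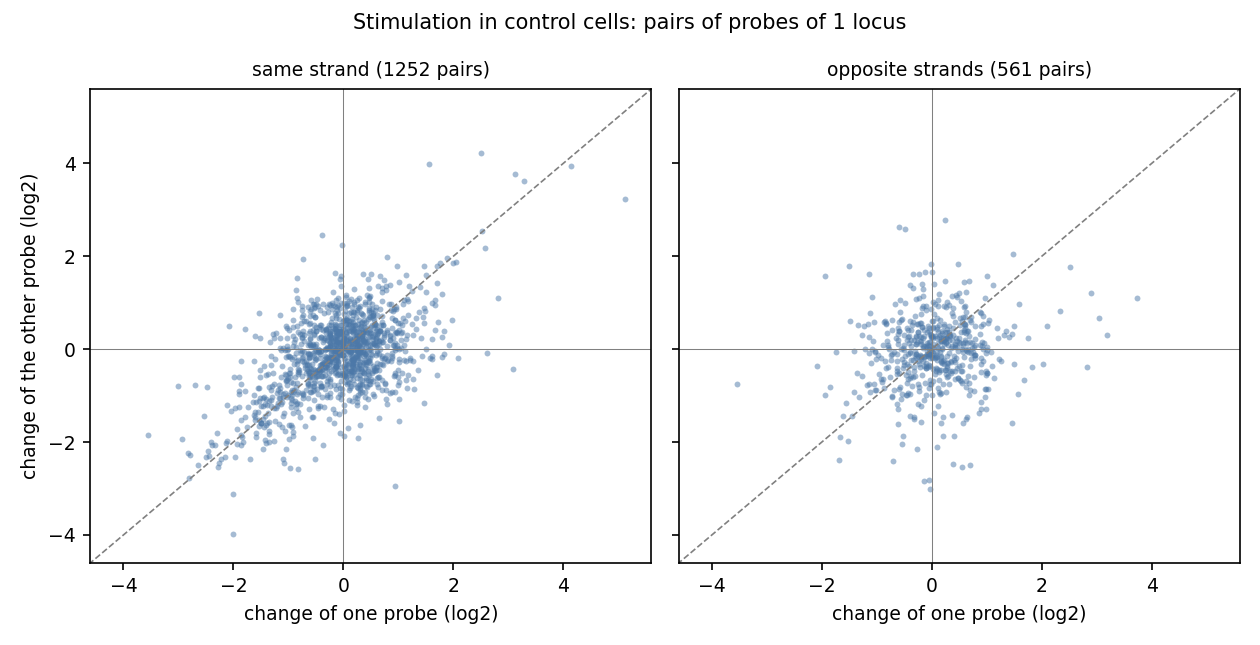
Log2 change on stimulation in control cells for pairs of probes of 1 locus, with 1 probe on each axis and 1 pair per locus. The 1252 pairs of the same strand (left) form a cloud drawn out along the diagonal, with r = 0.56 and 61.3% of pairs of like sign, and the 561 pairs of opposite strands (right) scatter around 0 with r = 0.14 and 54.4% of like sign.

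At some loci both strands had a called probe. There were 23 such loci in control cells: 16 had the same direction, 6 the opposite direction and 1 was tied. Since 525 of the 726 calls there were falls, unrelated calls often share a direction too. The 16 loci therefore do not show that the strands moved together. At chr4:129497990-129515290, 10 probes of strand F and 2 of strand R fell. At chr11:95627874-95640824, 6 probes of strand F and 4 of strand R fell. At chr3:19179899-19216399, 3 fell on each strand. The locus chr6:129151512-129208737 was mixed: 1 probe of strand F rose by 2.14, and on strand R 3 fell and 2 rose. In knockout cells 6 loci were called on both strands, 4 in the same and 2 in opposite directions.

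Neighbouring loci also changed as runs, by the same limit of 100 kb between loci with probes called in 1 direction. Each run thus has 1 direction by this rule, and its counts leave out tested probes without a call. Runs of both directions can adjoin. On chromosome 6, 9 falling probes of strand R, from 31007184 to 31168433, lay beside 3 rising probes of strand F, from 31170350 to 31287353. In control cells 60 runs of 2 or more loci fell and 16 rose. Loci of a run can overlap, as those of the falling runs on chromosomes 3 and 10 do. The 4607 names merge into 3362 regions of overlapping loci on 1 strand. How many runs unrelated calls would give was not worked out, so these counts do not show that separate neighbours moved together. On chromosome 19, from 5771425 to 5848475, 9 probes at 5 loci fell by 0.98 to 2. On chromosome 1, from 175653557 to 175717250, 13 probes at 4 loci of strand R fell by 0.84 to 2.33. On chromosome 16, from 43623175 to 43642715, 10 probes at 3 loci of strand F fell by 1.58 to 2.71. A run of loci can be 1 long transcript named in pieces or several, and the values here do not separate these.

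In knockout cells, stimulation changed 275 locus probes, of which 144 rose and 131 fell. That is 5.41%, against 16.1% of all features (10.9% rose and 5.2% fell). Of the 144 that rose, 35 were kept only through stimulated knockout cells, and of the 131 that fell, 13 only through resting knockout cells. Among the 775 probes seen on all arrays, 63 rose and 30 fell, against 19.8% and 5.11% of features. Without knockout replicate 2 the count was 158 when its resting array was left out and 172 when its stimulated array was, and without replicate 1 it was 181 and 174. On slide 1 alone it was 118. With the percentile over spots seen on all arrays 20% of 455 calls were increases, in place of 52.4%, and with a filter on all 12 arrays 67.5% of 166. NK cell markers summed to 7.59 to 11.0 at rest and 219 to 426 after stimulation in knockout cells, and 4 of 7 rose. Myeloid markers summed to 95.6 to 153 and then 31.9 to 41.3, and 7 of 13 fell. Of plasma cell markers 4 of 7 rose and 1 fell, of T cell markers 2 of 9 rose and 1 fell, and of B cell, platelet and erythroid markers 3 of 8, 3 of 5 and 2 of 2 fell. Their part in the locus probes was not tested.

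Of the 6 largest increases in knockout cells 5 were also called in control cells. A_30_P01033054 at chr5:35893909-35899497, strand F, rose by 3.8 (adjusted p = 0.000583) in knockout and by 3.18 (adjusted p = 0.000775) in control cells. A_30_P01025511 at chr4:149445201-149445902, strand F, rose by 3.27 (adjusted p = 0.0115) in knockout cells, a call that ended on slide 1 alone, and changed by 1.59 (adjusted p = 0.14) in control cells. Among decreases, A_30_P01024145 at chr17:29378878-29379589, strand F, read 1.99, 2.21 and 2.96 in resting and -0.79, -0.94 and 0.67 in stimulated knockout cells. Its change was -2.74 (adjusted p = 0.0111), against -0.93 in control cells (adjusted p = 0.314, interaction adjusted p = 0.502).

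Of the 201 probes that rose in control cells 96 (47.8%) also rose in knockout cells, which is 66.7% of the 144 that rose there. Of the 525 that fell in control cells 104 (19.8%) also fell in knockout cells, 79.4% of the 131 there. No locus probe was called in opposite directions in the 2 genotypes. The same shares over all features were 63.3% and 85.8% for increases and 31.4% and 79.1% for decreases. Smaller counts in knockout cells do not show a weaker response, since 2 locus probes of 5085 were called in the test of the difference itself (0.0393%, against 0.144% of all features).

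**Figure D4:**
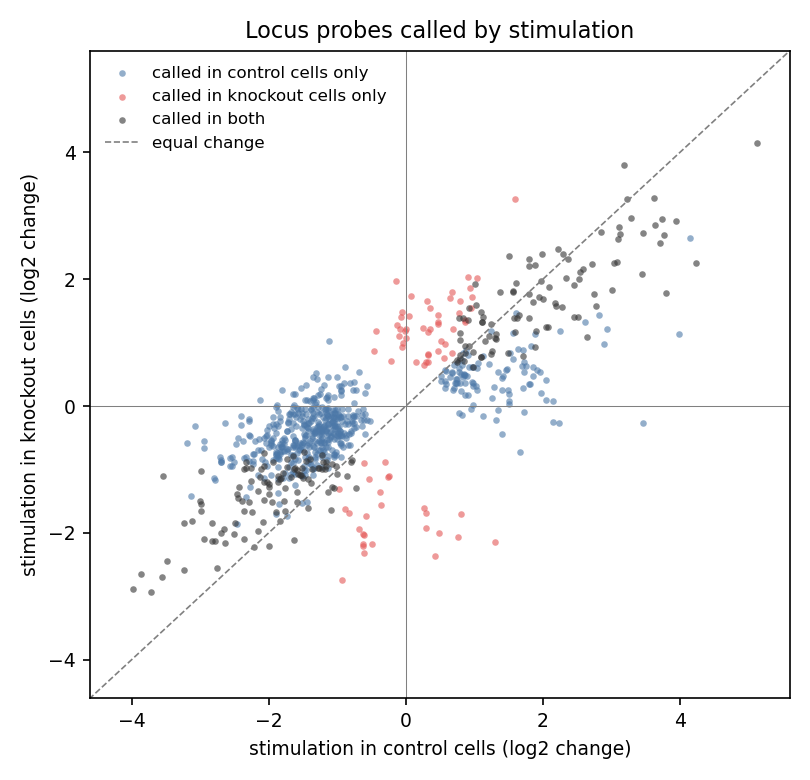
Log2 change on stimulation in control cells (horizontal) and knockout cells (vertical) for each locus probe called in either, coloured by where it was called; the dashed line marks equal change. The probes called in both, 96 higher and 104 lower, lie in the upper right and lower left, and no probe called in both lies elsewhere.

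Both interaction probes lie in overlapping loci of chromosome 3. A_30_P01032887, at chr3:21973306-21974266 on strand R, read 1.17, 0.99 and 0.70 in resting control and -2.21, -2.30 and -2.19 in stimulated control cells. In knockout cells it read 0.24, -0.05 and -0.01 at rest and -0.15, -0.69 and -0.72 after stimulation. The order of the group means was thus resting control, resting knockout, stimulated knockout and stimulated control, with no overlap between these neighbours. It fell by 3.19 in control cells (adjusted p = 7.26e-06), while the change of -0.58 in knockout cells did not pass the test (adjusted p = 0.0917). The interaction was 2.60 (SE 0.30, adjusted p = 0.0247). A_30_P01022266, at chr3:21964899-21974524 on the same strand, read 0.68, 0.52 and 0.49, then -2.97, -2.31 and -2.24 in control cells, and -1.19, -0.62 and -0.31, then -0.77, -1.12 and -1.17 in knockout cells. Its interaction was 2.75 (SE 0.38, adjusted p = 0.035). On stimulated control replicates 1 and 2 the lowest levels called well above background were -1.75 and -0.10. Both probes lay under these levels, so their falls in control cells and their interactions rest in part on values at background. Both kept their sign under the 27 other settings in which they were tested, but their calls ended in 14 and 16 of these, among them 9 and 10 of the 12 fits that left out 1 array, and for both the fits without both arrays of control replicate 1 and on slide 1 alone.

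**Figure D5:**
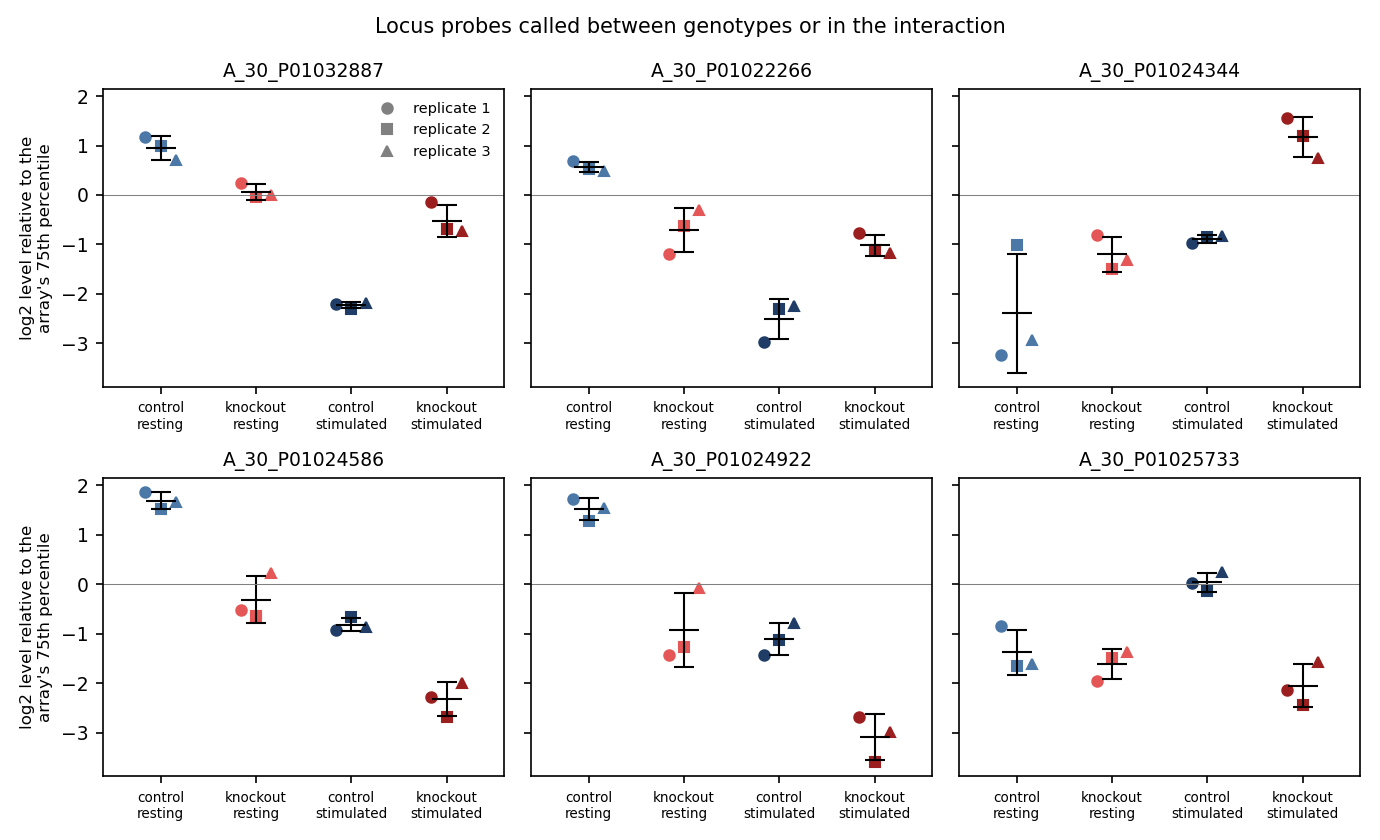
Log2 level relative to the array's 75th percentile for 6 locus probes that differed between genotypes or in the interaction, with each replicate as a point and the mean and SD of 3 as a bar. A_30_P01032887 has means of 0.95 and 0.06 in resting control and knockout cells and of -2.24 and -0.52 in stimulated ones, and A_30_P01024586 is lower in knockout cells in both states.

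Between the genotypes, 64 locus probes differed in stimulated cells, 44 higher and 20 lower in the knockout. That is 1.26% of the 5085, against 3.46% of all features (1.21% higher and 2.26% lower). The 44 that were higher were dim, with a median level of -0.65 in knockout and -2.04 in control cells, and 1 of them was well above background on all 12 arrays. The 20 that were lower were bright, with medians of 1.53 in knockout and 2.73 in control cells, and 14 were seen on all 12 arrays. Over the 775 probes seen on all arrays, 1 was higher and 14 lower, against 0.409% and 4.72% of features. Of the 44 that were higher, 6 were kept only through stimulated knockout cells, and none of the 20 that were lower only through stimulated control cells. Groups did not overlap for any of the 64, and all had the same sign on both slides. Probes picked by the test are likely to show both, so these counts are no further support. With the replicate number as a block, 312 probes were called, 244 higher and 68 lower, against 8.12% of all features. Deviations of same-numbered arrays correlated at 0.35, 0.33 and 0.48 in this comparison. The block was fitted on all 12 arrays, however. Replicate 1 showed no such correlation between genotypes at rest (-0.12) or between states of knockout cells (0).

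This count and its direction depend on a few arrays and on the scaling. It was 5 without stimulated control replicate 1 and 191 without stimulated control replicate 2, the array with the fewest probes detected. Leaving out stimulated knockout replicate 1, 2 or 3 gave 6, 8 and 15, leaving out both arrays of control replicate 1 gave 2, and slide 1 alone gave 0. Leaving out a resting array also lowered it, to 29 without control replicate 3, 41 without control replicate 2, and 42, 35 and 40 without knockout replicates 1, 2 and 3. Increases made up 68.8% of calls, 97.0% of 400 with the percentile over spots seen on all arrays, 6.67% of 45 under median scaling, 39.3% of 28 after normexp background correction and 6.82% of 88 with a filter on all 12 arrays. The median change of all features was -0.02 as scaled here, 0.39 under the first of these and -0.58 under median scaling.

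Some markers of NK, myeloid, T and erythroid cells were higher in the stimulated knockout samples, and most plasma cell markers were lower. Over all features 1.21% were higher and 2.26% lower. NK cell markers, of which 7 of 9 were tested, had summed levels of 219 to 426 there and of 35.2 to 37.2 in stimulated control cells, and 4 were higher. Of 15 myeloid markers 13 were tested, with sums of 31.9 to 41.3 against 12.6 to 28.2 and 4 higher. Of 9 T cell markers, all tested, 1 was higher, with sums of 80.9 to 93.2 against 55.5 to 68.8. Plasma cell markers, all 7 tested, had 6 lower, with sums of 296 to 368 against 619 to 964. Of 8 B cell markers, all tested, 2 were lower and none higher, with sums of 528 to 643 against 490 to 689. Of 7 erythroid markers 2 were tested, with sums of 1.67 to 7.54 against 0.0826 to 0.825 and 1 higher. All 5 platelet markers were tested, with sums of 1.28 to 1.68 against 0.709 to 2.30 and none called. Their part in the locus probes was not tested.

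The strongest decreases in stimulated knockout cells were on chromosomes X and 13. A_30_P01025733, at chrX:69100279-69100983 on strand F, stood after stimulation at 0.02, -0.14 and 0.24 in control and at -2.14, -2.44 and -1.57 in knockout samples. In resting cells both genotypes were low, at -0.85, -1.65 and -1.62 in control and -1.95, -1.50 and -1.37 in knockout cells, and overlapped. The stimulated change was -2.09 (SE 0.30, adjusted p = 0.00774), and it stayed called in 25 of 28 other settings. In stimulated control replicate 2 and stimulated knockout replicate 2 the probe lay under the lowest level called well above background, -0.10 and -1.43. The size of this change thus rests in part on values at background. In control cells the probe rose on stimulation by 1.41 (adjusted p = 0.00462).

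A_30_P01024586 and A_30_P01024922, both at chr13:34693404-34717987 on strand R, were lower in knockout cells in both states. A_30_P01024586 read 1.87, 1.53 and 1.67 in resting control and -0.52, -0.65 and 0.23 in resting knockout cells. After stimulation it read -0.92, -0.67 and -0.86 in control and -2.28, -2.69 and -1.99 in knockout cells. The 4 groups did not overlap, although stimulated control and resting knockout values lay next to each other. In replicate 2 of both stimulated groups this probe lay under the lowest level called well above background, -0.10 in control and -1.43 in knockout cells. The change was -1.51 (SE 0.26, adjusted p = 0.0168) in stimulated cells and -2.01 (SE 0.26, adjusted p = 0.0672) in resting cells, where it had the smallest adjusted p of any locus probe and did not pass the test. A_30_P01024922 changed by -1.98 (adjusted p = 0.0209) and -2.44 (adjusted p = 0.0948), in the same order. The stimulated calls ended in 7 and 10 of 28 other settings, and at rest the probes gained a call in 10 and 7 of 28, the replicate block among them.

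A further 3 probes were among the largest decreases, and 2 of them rose on stimulation in both genotypes. A_30_P01032049 at chr15:79764481-79809909, strand F, stood after stimulation at 3.54, 2.76 and 3.50 in control and at 2.14, 1.66 and 1.71 in knockout samples (change -1.43, adjusted p = 0.0344). It rose on stimulation in both genotypes, by 2.64 and by 1.08 (adjusted p = 0.000134 and 0.0387). A_30_P01021530 at chr14:33923944-34003394, strand F, was lower by 1.27 on the log2 scale (-1.27, adjusted p = 0.0321), and rose on stimulation by 2.46 and 1.40. A_30_P01031130 at chr13:94200051-94200598, strand R, differed by -1.49 (adjusted p = 0.0243), and its changes on stimulation of 0.21 and -0.60 did not pass the test.

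Among the increases, A_30_P01024344 at chr4:149445201-149445902, strand F, stood after stimulation at -0.98, -0.86 and -0.82 in control and at 1.56, 1.20 and 0.75 in knockout samples, with no overlap. In stimulated control replicate 2 it lay under the lowest level called well above background, -0.10. The change was 2.06 (SE 0.49, adjusted p = 0.0498), and the second probe of this locus, A_30_P01025511, changed by 2.13 without passing the test (adjusted p = 0.135). The call of A_30_P01024344 ended in 17 of 28 other settings. A_30_P01032887 of the interaction was higher by 1.71 (adjusted p = 0.00477). A_30_P01024183 at chr3:90425270-90435820, strand F, was higher by 1.73 (adjusted p = 0.0193), and A_30_P01031933 at chr12:111824094-111838478, strand F, by 2.30 (adjusted p = 0.0197). In the same order, the calls of these 3 ended in 6, 11 and 9 of 28 other settings. Of the largest increases, 2 had no stimulated control array well above background. They were A_30_P01019136 at chr8:114477602-114488627, strand R, at least 1.90-fold higher (adjusted p = 0.0436), and A_30_P01028153 at chr1:183811267-183816309, strand F, at least 1.40-fold higher (adjusted p = 0.0372). The call of each ended in 16 of 28 other settings.

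The called probes with the changes closest to 0 were between 0.83 and 0.92 in size. A_30_P01020720 at chr16:32309935-32328234, strand R, had values of 5.52, 5.03 and 5.65 in control samples after stimulation, and of 4.48, 4.60 and 4.59 in knockout samples. Its change was -0.85 (adjusted p = 0.0421), and the call ended in 20 of 30 other settings. A_30_P01019593 at chr2:181650800-181669350, strand F (0.83, adjusted p = 0.0488), lost its call in 23 of 28. A_30_P01028637 at chr8:119090566-119097735, strand R, and A_30_P01021665 at chr16:43623175-43624069, strand F, changed by 0.91 and 0.92 (adjusted p = 0.0369 and 0.0389).

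In resting cells no locus probe differed between the genotypes by limma, and 0.0131% of all features did. At an unadjusted p under 0.05 there were 966 locus probes, or 19%, against 19.7% of all features. The locus probes had a median change of 0.23, against -0.21 over all features, and the 775 seen on all arrays a median of -0.33, against -0.35. Counts under the other settings ran from 0 to 61, the highest with array weights. After the chromosome 13 probes, the smallest adjusted p-values belonged to A_30_P01029853 at chr6:31078802-31079644, strand R, and A_30_P01018987 at chr1:88187397-88187862, strand R (0.0948 each). A_30_P01029853 read 3.54, 3.29 and 3.54 in control and 2.08, 2.10 and 2.51 in knockout cells, a change of -1.23. A_30_P01018987 read 1.30, 1.19 and 1.03, then 0.08, 0.00 and 0.18, a change of -1.08. In both, the resting groups did not overlap. Myeloid markers summed to 95.6 to 153 in resting knockout and 55.8 to 87.0 in resting control cells, and plasma cell markers to 207 to 277 and 144 to 165. B cell markers summed to 688 to 813 and 1030 to 1200, and erythroid markers to 38.0 to 155 and 2.88 to 50.3, which overlapped. No marker of these lists was called at rest, and their part in these values was not tested.

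Long noncoding RNA genes with a gene name on the array, on a list chosen with earlier results known, followed stimulation in both directions. Of 73 listed genes 27 were tested. In control cells 6 rose and 5 fell, in knockout cells 6 rose and 3 fell, and none was called between genotypes. Over all features 14.7% rose and 13.1% fell in control cells, and 10.9% and 5.2% in knockout cells. Between genotypes 3.46% of all features differed in stimulated and 0.0131% in resting cells. The median change of the 27 genes in control cells was 0.13, against 0.04 over all features. Morrbid, which limits expression of the pro-death gene Bcl2l11, read -4.29, -3.94 and -4.45 in resting and 0.18, -0.27 and -0.64 in stimulated control cells (change 3.99, adjusted p = 6.64e-06). It rose by 2.51 in knockout cells (adjusted p = 0.000156). Mirt1 fell by 3.19 and 2.08 (adjusted p = 2.93e-05 and 0.000855). Peg13, an imprinted RNA, fell by 3.09 and 1.83 (adjusted p = 8.22e-05 and 0.00415). Malat1, an abundant RNA of nuclear speckles, fell by 1.19 and 1.24 (adjusted p = 0.0138 and 0.0188). Snhg3, a host gene of small nucleolar RNAs, rose by 1.49 and 1.91 (adjusted p = 0.00149 and 0.000721). Neat1, the scaffold RNA of paraspeckles, rose by 0.72 and 1.06 (adjusted p = 0.0322 and 0.00808). Malat1 and Neat1 thus went in opposite directions, each the same way in both genotypes. In control cells, however, 5 further probes named NEAT1 changed by 0.38 to 0.52, none past the threshold, so the Neat1 call there rests on 1 probe.

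Genes that degrade, terminate or bind noncoding RNA are given for the same samples, beside the shares of all features just stated. None of the 25 tested members of the nuclear exosome and its adaptors, of the 33 termination and Integrator genes, or of the 28 chromatin regulators that bind or silence through long noncoding RNA differed past the threshold in either state. With 3.46% of all features called between genotypes in stimulated and 0.0131% in resting cells, few calls or none would be looked for in such lists. On stimulation of control cells 4 exosome genes rose and 1 fell. Mphosph6, an exosome cofactor, rose by 1.18 (adjusted p = 0.00202), and Exosc8, an exosome core subunit, by 1.18 (adjusted p = 0.00187). Dis3, its catalytic nuclease, rose by 1.05 (adjusted p = 0.00551), and Zcchc7, an adaptor subunit, fell by 1.29 (adjusted p = 0.00219). Among termination and Integrator genes 5 rose and 3 fell, with Nudt21, a subunit of cleavage factor I, higher by 1.39 (adjusted p = 0.000781) and Cpsf2 lower by 1.08 (-1.08, adjusted p = 0.00462). Among chromatin regulators 8 rose and 4 fell. Ezh2, the Polycomb methyltransferase, rose by 2.68 (adjusted p = 2.7e-05) and Suz12, its partner, by 1.12 (adjusted p = 0.00574), while Ezh1, the paralogue of Ezh2, fell by 1.18 (adjusted p = 0.00107) and Jarid2 by 1.44 (adjusted p = 0.00925). In knockout cells 4 exosome genes rose and none fell, 4 termination genes rose and none fell, and 7 chromatin regulators rose and 2 fell.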

How the data were processed

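RNA of 12 samples was amplified, labelled with Cy3 and hybridised to one-colour Agilent arrays, per the labels. The deposited values are background-subtracted processed signal intensities on a linear scale, from Feature Extraction 10.7.3.1 per the file headers and 9.1 per the submitters' processing notes; the deposited matrix holds the same intensities (largest relative difference 0.497%).

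Outlier spots were set to missing (302 locus values). The log2 intensity minus the array's 75th percentile over the 59305 non-control spots was fitted with limma 3.58.1 (lmFit, eBayes; R 4.3.3) on 12 arrays, with 4 group means and 8 residual degrees of freedom. Benjamini-Hochberg adjustment covered 22981 features (1 probe per named gene and each unnamed probe), with a threshold of 0.05. The number of arrays limits the precision. The pipeline was tested on simulated data. "Kept" means well above background on 3 of 3 arrays of a group.

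The members and lists were chosen with earlier results of these data known. Named probes were, per comparison, the 6 largest increases and 6 largest decreases called without overlap, or the 4 smallest p-values where none was called. Added to these were the called probes closest to 0, up to 6 loci with most called probes, up to 6 called on both strands, and called members of each list. A_30_P01028673, Malat1, Neat1, Suz12, Jarid2 and the runs shown were chosen after their values were seen. Deviations of same-numbered arrays correlated at 0.35, 0.33 and 0.48 between genotypes after stimulation and at 0.42, 0.43 and 0.51 between states of control cells. All of these were above the limit of 0.1 used here for arrays paired by replicate number. Replicate 3 lay on slide 2 in every group, however, so its pairing and its slide cannot be told apart. Between genotypes at rest the deviations correlated at -0.12, 0.2 and 0.39, and between states of knockout cells at 0, 0.15 and 0.39. By that limit replicate 1 was not paired in either of these comparisons. Alternatives covered scaling, background, filter, model, slide and single arrays.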

Additional observations from a re-analysis of the deposited data

Results flagged for a closer look

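The effect of stimulation differed between the genotypes, by the interaction term, at 2 locus probes of overlapping loci on strand R of chromosome 3. The interaction of A_30_P01022266 was 2.75 (SE 0.38, limma adjusted p = 0.035). Stimulation changed it by -3.07 in control and by -0.31 in knockout cells. The interaction of A_30_P01032887 was 2.60 (SE 0.30, limma adjusted p = 0.0247). Stimulation changed it by -3.19 in control and by -0.58 in knockout cells. On stimulated control replicates 1 and 2 both probes lay under the lowest level called well above background. The 4 other tested probes of chr3:21964899-21974524 fell in control cells too, and none of them passed the interaction test. With groups of 3 samples, no single sample was tested as standing apart.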

How the results depend on the processing

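Counts of called locus probes are given by setting, against 0 and 64 for the knockout effect in resting and stimulated cells, 726 and 275 for stimulation of control and knockout cells, and 2 for the interaction. With the replicate number as a block, the knockout effect gave 11 at rest and 312 after stimulation. With the slide as a block they were 4 and 161, and the interaction 4. A fit on the 2 groups compared alone gave 0 for the stimulated knockout effect, and could not be run for the interaction. The percentile over spots seen on all arrays gave 6 and 400 for the knockout effect, 455 for stimulation of knockout cells and 27 for the interaction. Median scaling gave 2 at rest, 456 and 149 for stimulation, and 0 for the interaction. Quantile normalization gave 3, 34 and, for the interaction, 4, and normexp 11, 28 and 8. Without a filter the stimulated knockout effect gave 0, stimulation 442 and 102, and the interaction 0. With a filter on all 12 arrays the counts were 3 at rest, 255 and 166 for stimulation, and 10 for the interaction. The eBayes options trend and robust gave 13, 112 and 23 for both knockout effects and the interaction, and array weights 61, 40 and 8, with 448 for stimulation of knockout cells. Without both arrays of control replicate 1 the stimulated knockout effect gave 2, stimulation of control cells 414 and the interaction 0. On slide 1 alone the stimulated knockout effect gave 0, stimulation 407 and 118, and the interaction 0. Of 2 settings chosen after seeing the data, the percentile over spots seen on all arrays joined with the filter on all 12 gave 4 at rest, 298 for stimulation of control cells and 42 for the interaction. The replicate block without stimulated control replicate 2 gave 3 and 248 for the knockout effect, 477 for stimulation of knockout cells and 4 for the interaction.

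Leaving out 1 array at a time gave 0 to 4 and 5 to 191 for the knockout effect, 501 to 731 and 158 to 344 for stimulation, and 0 to 5 for the interaction. Where a count moved, the cause was not tested, beyond fewer samples or fewer probes where the setting itself removes them. For the probes named, 1028 values stayed on their side of the threshold, 243 lost the call, 27 gained one and 0 changed sign; A_30_P01024586 and A_30_P01024922 gained a call at rest under the replicate block (limma adjusted p = 0.0354 and 0.0456). With 2 of 3 arrays enough for detection, 9361 locus probes would be kept and 879 loci have both strands, and with signals that are positive and significant on 3 of 3, 11893 and 976, against 5085 and 561.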

Other observations

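Apart from the locus probes, the array holds probes named for known long noncoding RNAs, which were looked at after the files were seen. NEAT2, another name of Malat1, fell on stimulation at 3 of 3 tested probes, by 1.32 to 1.37 in control and by 1.25 to 1.34 in knockout cells. NEAT1 rose at 3 of 5 probes in knockout cells, by 0.82 to 1.02, and the other two changed by 0.59 and 0.73 without a call. In control cells the 5 changed by 0.38 to 0.52, none past the threshold. All 5 TUG1 probes were tested and changed by -0.91 to -0.51 in control cells, none past the threshold. No probe of H19, HOTAIR or NRON, with 5 probes each, was kept.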
